A study of Mus musculus with 15 samples.

Results

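The loci of Tbl1xr1, Pip4k2a, Ptpn14, Ube2e3 and Lpin1 hold some of the highest regions of cohesin, read out by its subunit Rad21, that overlap no CTCF peak in immature mouse T cells. They were chosen by the Rad21 fold of regions that overlap no CTCF peak, so those folds and that lack of CTCF are given as a description. For each gene, all peaks of 5 ChIP-seq peak lists within the gene body and 400 kb on each side were taken. These windows cover 4.55 Mb and hold 632 of the 185702 peaks: 66 of CTCF, 135 and 182 of Rad21 (replicates 1 and 2) and 158 and 91 of H3K27ac. The cells were CD69-negative CD4+CD8+ thymocytes of wild type C57BL/6 mice, and every library described below is of that 1 group. The series of 15 samples also has 8 Hi-C samples of wild type, CTCF-/- and CTCF-/-, Rad21-/- cells and 2 input samples, which were not analysed here. The series is about cohesin-driven loop extrusion, and peak lists can show which CTCF sites and active elements surround cohesin at these loci. Whether the replicates are separate animals is not stated in the labels, and differences between them may be technical. CTCF was profiled in 1 library.

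Cohesin is a ring-shaped complex that is loaded onto chromatin and enlarges DNA loops by extrusion. CTCF, a zinc finger protein, binds a directional motif and stops cohesin that approaches from one side, so most fixed cohesin positions lie on CTCF sites. H3K27ac, acetylation of lysine 27 of histone H3, marks active promoters and enhancers, where cohesin is also found and where loading is thought to take place. In double-positive thymocytes cohesin takes part in the long-range contacts that accompany T cell receptor alpha rearrangement.

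A Rad21 or H3K27ac region was called shared when merged peaks held a peak of each replicate, and a shared Rad21 region with no base in a CTCF peak was called CTCF-free. Heights are the authors' fold enrichments over local background, and each CTCF-free region was ranked by the worse of its ranks in the replicates. The 6 highest CTCF-free regions in the windows are called index regions: a pair at Tbl1xr1, one upstream of the gene and one at its promoter, and 1 each at Pip4k2a, Ptpn14, Ube2e3 and Lpin1. They ranked 4, 12, 19, 22, 5 and 6, in that order, among 10559 CTCF-free regions of the genome. They are not the genome's 6 highest: of the next 4 regions listed, all elsewhere in the genome, the one of rank 11 stood above the Tbl1xr1 promoter, Pip4k2a and Ptpn14, and one of rank 22 tied with Ptpn14. These 4 had ranks 11, 22, 23 and 24 and replicate folds of 26.1 and 42.7, 23.7 and 59.5, 23.6 and 34.7, and 24.4 and 34.0. Among the index regions the lowest rank, 22, was that of Ptpn14, with folds of 26.3 and 34.5.

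The reference sequence around the replicate 1 summit (build mm9, plus strand) is shown first for the 4 index regions that overlap H3K27ac, with every CpG in capitals, because CpG density separates them from the other index regions. At Tbl1xr1 upstream and Ptpn14 the 151 bases are centred on the summit. At the Tbl1xr1 promoter and Pip4k2a the nearest 150 bases without an annotated untranslated region are given, 66 and 30 bp from the summit.
Tbl1xr1 upstream, chr3:21835011-21835161: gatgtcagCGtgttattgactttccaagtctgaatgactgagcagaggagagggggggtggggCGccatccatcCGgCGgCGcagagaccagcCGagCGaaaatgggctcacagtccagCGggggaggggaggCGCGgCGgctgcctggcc
Tbl1xr1 promoter, chr3:21975424-21975573: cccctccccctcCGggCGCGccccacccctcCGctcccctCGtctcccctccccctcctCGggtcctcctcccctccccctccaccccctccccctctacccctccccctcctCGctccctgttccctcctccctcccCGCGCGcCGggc
Pip4k2a, chr2:18919820-18919969: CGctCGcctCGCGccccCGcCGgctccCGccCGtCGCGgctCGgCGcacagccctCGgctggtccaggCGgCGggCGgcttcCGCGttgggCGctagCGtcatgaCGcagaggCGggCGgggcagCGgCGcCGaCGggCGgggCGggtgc
Ptpn14, chr1:191654872-191655022: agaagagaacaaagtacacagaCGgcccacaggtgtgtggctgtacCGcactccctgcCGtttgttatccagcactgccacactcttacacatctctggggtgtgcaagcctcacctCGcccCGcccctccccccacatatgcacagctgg

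For the index regions without H3K27ac, the 151 bases centred on the replicate 1 summit are shown with the match to the CTCF core consensus in capitals. The match lies on the plus strand at Ube2e3 and on the minus strand at Lpin1.
Ube2e3, chr2:78799690-78799840: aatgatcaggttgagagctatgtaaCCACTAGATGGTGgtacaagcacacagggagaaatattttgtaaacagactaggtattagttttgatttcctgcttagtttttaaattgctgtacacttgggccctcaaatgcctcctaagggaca
Lpin1, chr12:16238040-16238190: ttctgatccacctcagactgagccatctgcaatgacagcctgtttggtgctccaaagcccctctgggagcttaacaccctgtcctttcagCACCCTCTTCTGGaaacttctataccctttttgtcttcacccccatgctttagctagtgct

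The index regions fell into a group of 4 wide, GC-rich regions in H3K27ac and a pair of narrow, CpG-poor regions outside it. The Tbl1xr1 protein belongs to a corepressor complex of nuclear receptors. Its upstream index region (chromosome 3, 21834330 to 21836159, 1830 bp, intergenic) lay 139415 bp before the transcription start site (TSS) and had Rad21 folds of 42.5 in replicate 1 and 48.6 in replicate 2. Its promoter index region (21975517 to 21976828, 1312 bp, over the TSS) had folds of 45.2 and 39.6. So the upstream region was the higher of the pair in replicate 2 and the lower in replicate 1. Pip4k2a encodes a lipid kinase that makes phosphatidylinositol bisphosphate, and its index region (chromosome 2, 18917942 to 18920430, 2489 bp) covered the promoter that it shares with the divergent gene 4930426L09Rik, at folds of 26.99 and 34.8. At Ptpn14, which encodes a non-receptor tyrosine phosphatase, the index region (chromosome 1, 191654276 to 191655301, 1026 bp, folds 26.3 and 34.5) was intronic, 14942 bp from the nearest annotated TSS of the gene.

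The index regions near Ube2e3 and Lpin1 were both intergenic and short. Ube2e3 encodes a ubiquitin-conjugating enzyme, and its index region (chromosome 2, 78799574 to 78800066, 493 bp) lay 41024 bp from the nearest TSS, with folds of 30.7 and 46.2. Lpin1 encodes a phosphatidate phosphatase of lipid synthesis, and its index region (chromosome 12, 16237886 to 16238294, 409 bp) lay 358282 bp from the gene's TSS, with folds of 29.5 and 44.7. No protein-coding TSS was nearer, and the gene gives the region a name only. All 6 had a Rad21 −log10 q of 60.5 or more in both replicates. Between the replicates, 5 of the 6 were higher in replicate 2, and the Tbl1xr1 promoter was higher in replicate 1.

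Width and number of summits separated the same groups. The caller placed 3 and 5 summits (replicates 1 and 2) in the Tbl1xr1 upstream region, 3 and 3 at the Tbl1xr1 promoter, 6 and 6 at Pip4k2a and 2 and 2 at Ptpn14. At Ube2e3 and Lpin1 it placed a single summit in each replicate. The main summits of the replicates lay 1, 1, 7 and 19 bp apart in the H3K27ac group and 26 and 6 bp apart at Ube2e3 and Lpin1. At Pip4k2a the secondary summits were less alike: the summit near 18918700 had a fold of 10.1 in replicate 1 and 26.3 in replicate 2, while one with a fold of 22.3 in replicate 1 had its nearest counterpart 158 bp away. Of all CTCF-free regions, 2.11% were wider than 1000 bp and 5.75% had more than 1 summit in both replicates, and the 4 index regions in H3K27ac met both. Higher regions of that class were wider over the genome: with H3K27ac, the median width was 875.5 bp in the 12 regions of rank 1 to 50, 695 bp in the 42 of rank 51 to 200 and 379 bp in the 7550 below. Without H3K27ac the medians were 335, 346 and 242 bp (5, 20 and 2930 regions). More than 1 summit in replicate 1 was found in 58.3%, 31.0% and 13.6% of these rank groups with H3K27ac. Without H3K27ac it was found in 0%, 0% and 1.02%. The 12 regions include the 4 index regions in H3K27ac, and the 5 include Ube2e3 and Lpin1.

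**Figure D1:**
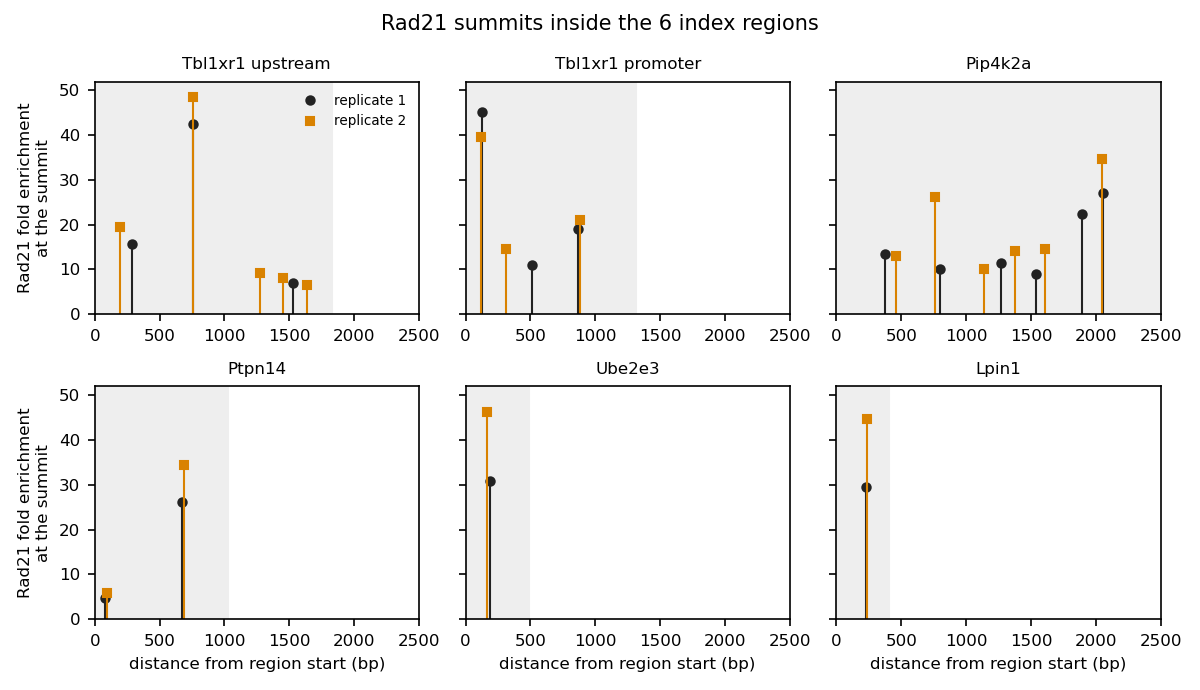
Rad21 summits in the 6 index regions. Each stem is a summit of replicate 1 (black circles) or replicate 2 (orange squares), the x axis is its distance from the start of the region in bp, the y axis its fold enrichment, and grey marks the region's extent. Main summits of the replicates lie within 26 bp of each other in all 6, and Ube2e3 and Lpin1 have 1 summit per replicate.

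H3K27ac covered 4 of the 6 index regions in both replicates, at modest height. Its folds were 2.14 and 2.04 at Tbl1xr1 upstream, 5.39 and 2.82 at the Tbl1xr1 promoter, 3.59 and 2.80 at Pip4k2a and 2.79 and 3.25 at Ptpn14, where the medians of the whole lists are 2.69 and 2.88. The upstream Tbl1xr1 region thus lies below the median in both lists. Its H3K27ac −log10 q was 1.56 and 0.683, against 12.5 and 2.13 at the promoter, 5.59 and 2.14 at Pip4k2a and 3.25 and 3.66 at Ptpn14. None of the 4 had a −log10 q of at least 5 in both replicates. The shared H3K27ac regions around them were 4169, 5143, 17498 and 7285 bp wide, against a median of 1810 bp over 16230 such regions. These extents are those of the replicate 1 peaks. The replicate 2 peaks on the index regions were 2006, 3606, 4424 and 3942 bp wide. Median peak widths of the whole lists are 1076 and 733 bp. The shared H3K27ac regions held 2, 3, 3 and 1 CTCF-free Rad21 regions. At Ube2e3 and Lpin1 neither H3K27ac list had a peak on the index region, and the nearest shared H3K27ac regions were 18397 and 151507 bp away. The median distance among the 2955 CTCF-free regions without H3K27ac was 17604 bp, so Ube2e3 was close to the middle of them and Lpin1 beyond the upper quartile of 42570.5 bp.

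Most index regions were far from CTCF, the Tbl1xr1 promoter being the exception. The distance from region edge to the nearest CTCF peak was 138750 bp at Tbl1xr1 upstream, 95322 bp at Pip4k2a, 43897 bp at Lpin1, 27747 bp at Ube2e3 and 24433 bp at Ptpn14, but 451 bp at the Tbl1xr1 promoter. The median of the 6 was 35822 bp. Over all 10559 CTCF-free regions the quartiles were 3470.5, 11157 and 27420.5 bp, so 98.4% of them were nearer to CTCF than Tbl1xr1 upstream, 96.3% nearer than Pip4k2a and 4.87% nearer than the Tbl1xr1 promoter. At Lpin1, Ube2e3 and Ptpn14 the share was 85.6%, 75.4% and 71.9%. Absence of CTCF was part of the choice, so these distances are given without a test.

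The distances depend on weak CTCF peaks, because the CTCF list reaches q values near 1 and 21 of its 66 peaks in the windows had a −log10 q below 1.3 (q above 0.05). The peak beside the Tbl1xr1 promoter was such a peak (fold 3.67, −log10 q 1.25), as were those nearest to Ptpn14 (fold 3.14, 0.479) and Lpin1 (fold 2.80, 0.0232). With CTCF peaks of −log10 q of at least 1.3, the nearest lay 172512 bp from Tbl1xr1 upstream, 31843 bp from the Tbl1xr1 promoter, 51585 bp from Ptpn14 and 110645 bp from Lpin1, while Pip4k2a and Ube2e3 kept their distances. The median over the 6 was then 73454 bp. Next to the Tbl1xr1 promoter region, 91 bp from its edge, lay a CTCF-bound Rad21 region of 1133 bp with folds of 20.6 and 29.7, which owes its class to the weak CTCF peak.

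**Figure D2:**
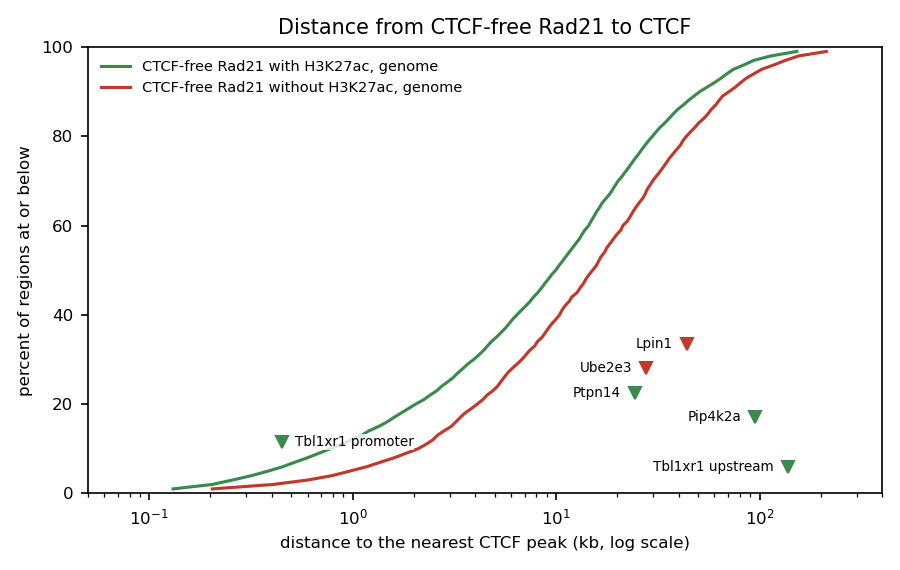
Distance to CTCF. The lines give the percent of CTCF-free Rad21 regions of the genome at or below each distance to the nearest CTCF peak (kb, log scale), with H3K27ac (green) and without it (red). Triangles mark the 6 index regions on the x axis in the same colours, and their height in the plot carries no value. The Tbl1xr1 promoter lies at 451 bp and the other index regions between 24433 and 138750 bp.

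The interval between the flanking CTCF peaks was 604543 bp at Tbl1xr1 upstream, larger than for 98.2% of CTCF-free regions. It was 379935 bp at Lpin1, 270721 bp at Ube2e3 and 193203 bp at Pip4k2a, above the upper quartile of 126017 bp, and 52997 bp at Ptpn14 and 33606 bp at the Tbl1xr1 promoter, below the median of 61707 bp. Counted within 50 kb of the index regions, CTCF peaks numbered 0 at Tbl1xr1 upstream and Pip4k2a, 1 at Ube2e3 and Lpin1, 2 at the Tbl1xr1 promoter and 5 at Ptpn14, where all CTCF-free regions have a median of 3. Within 400 kb they numbered 6, 7, 17, 16, 7 and 8 (Tbl1xr1 upstream, Tbl1xr1 promoter, Pip4k2a, Ptpn14, Ube2e3, Lpin1), where the quartiles are 14, 20 and 29. All 6 were below the median, and 4 were below the lower quartile. These intervals and counts, and the genome values beside them, include CTCF peaks with a −log10 q below 1.3. The peaks that bound the Ptpn14 interval had a −log10 q of 0 and 0.479. With such weak peaks left out, the nearest CTCF peak was 51585 bp from Ptpn14 and 110645 bp from Lpin1, so neither had one within 50 kb.

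Each of 3 windows held a stretch of over 200 kb without a shared Rad21 region or CTCF peak. In the Ube2e3 window, 400418 bp from the window's edge to just inside the gene (chromosome 2, 78308281 to 78708698) held no peak of either Rad21 list and none of CTCF, and overlapped 1 H3K27ac peak, of replicate 1. All Rad21 of the window lay at the gene or beyond it. In the Ptpn14 window 239260 bp (chromosome 1, 191861315 to 192100574), which contain Prox1, a homeobox gene of endothelial and liver development, held no peak of any of the 5 lists. In the Tbl1xr1 window 227792 bp upstream of the index region (chromosome 3, 21582266 to 21810057) held no CTCF peak and 1 Rad21 peak, of replicate 2, beside 13 and 2 H3K27ac peaks, which made 1 shared H3K27ac region.

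**Figure D3:**
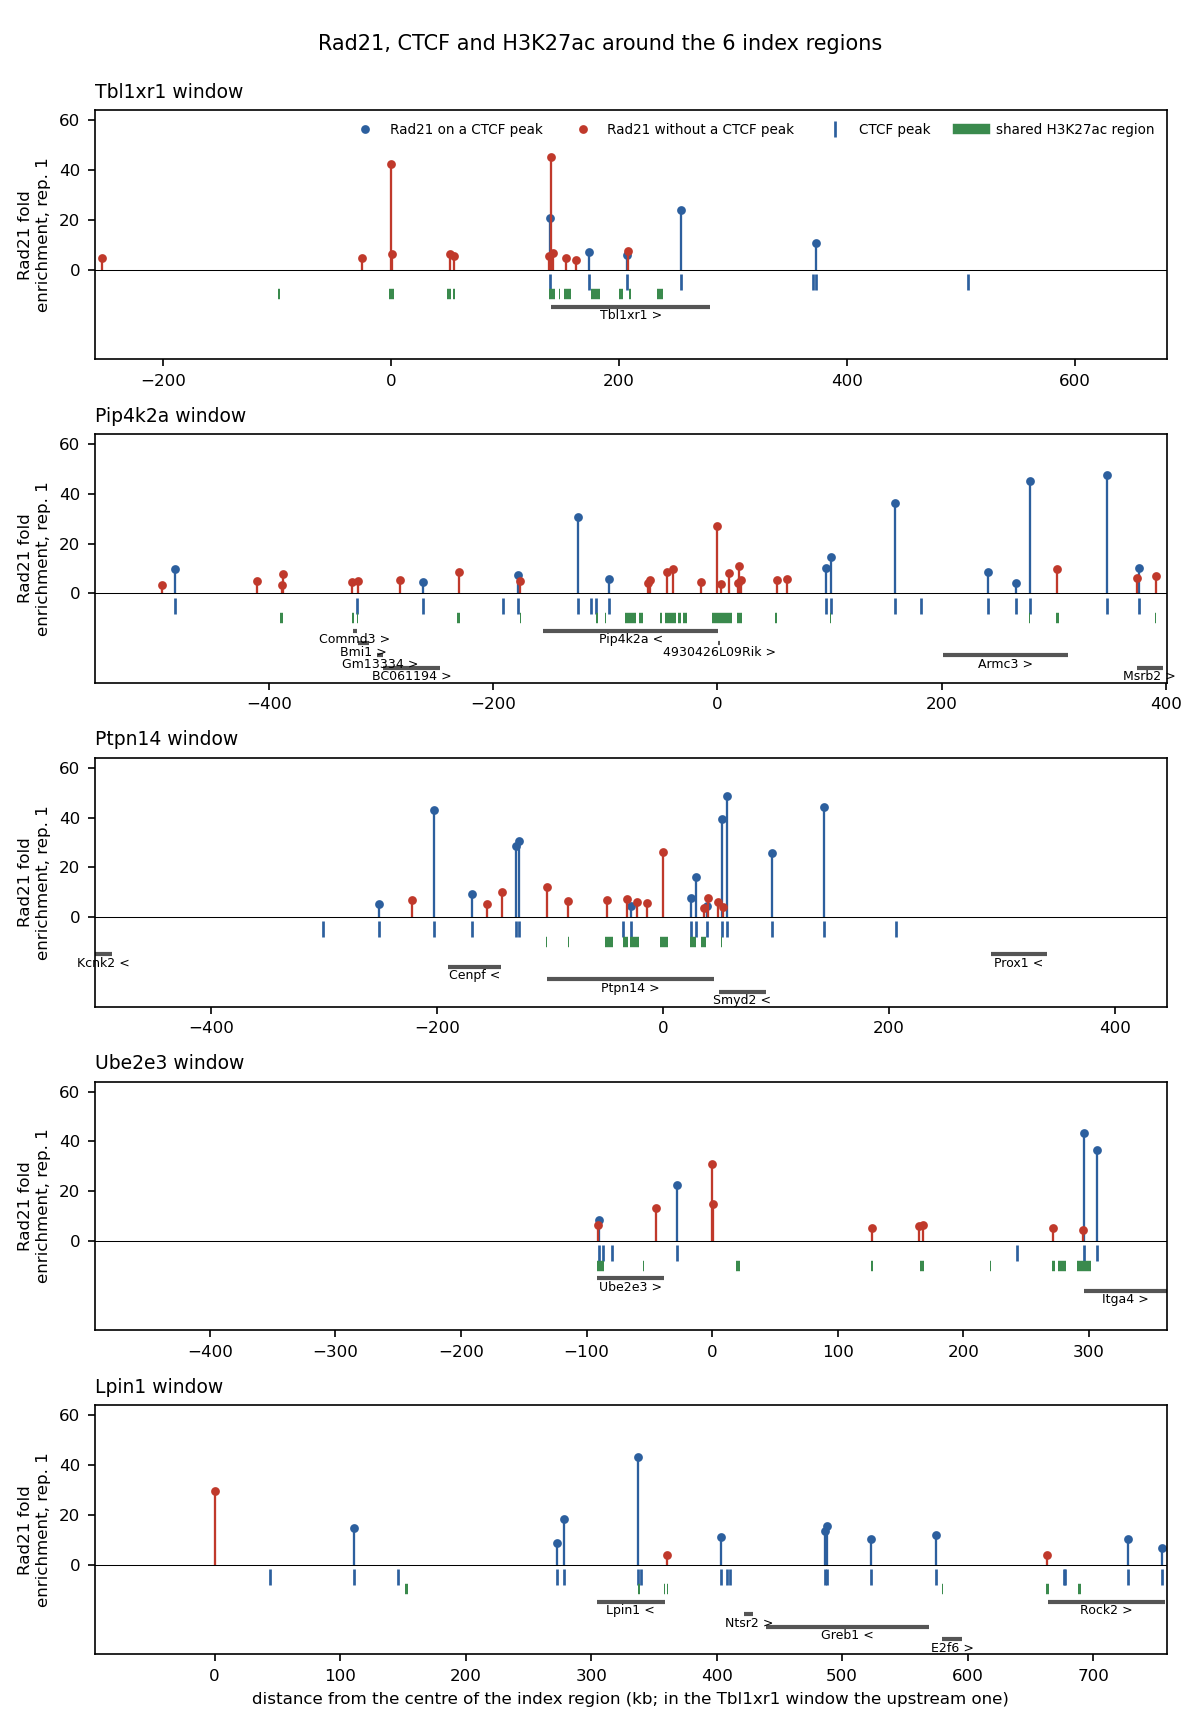
Maps of the 5 windows. The x axis is the distance in kb from the centre of the index region, red and blue stems are shared Rad21 regions without and with a CTCF peak at their fold enrichment in replicate 1 (y axis), blue ticks are CTCF peaks, green bars shared H3K27ac regions and grey bars protein-coding genes with their direction. Some CTCF-bound Rad21 regions are higher than the index region in the Pip4k2a, Ptpn14, Ube2e3 and Lpin1 windows. In the Tbl1xr1 window all are lower than the index regions.

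In the Tbl1xr1 window the index regions stood above all CTCF-bound Rad21. The highest CTCF-bound values there were 24.0 in replicate 1 and 36.2 in replicate 2. In the other windows CTCF-bound regions higher than the index region in both replicates numbered 2 (Pip4k2a), 5 (Ptpn14), 2 (Ube2e3) and 1 (Lpin1), with maxima, each taken within its replicate, of 47.4 and 59.4, 48.5 and 54.5, 43.4 and 55.1, and 43.2 and 48.9. Over the genome, 829 and 2217 of the 30959 shared Rad21 regions were higher than the Tbl1xr1 promoter in replicates 1 and 2, and 1038 and 1200 were higher than its upstream partner. The index regions are thus high for CTCF-free Rad21 and between the 88.3rd and 97.3rd percentile of all shared Rad21, counted in either replicate.

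The Rad21 regions bound by CTCF that flank the index regions were of mixed height and orientation. CTCF motifs are directional, and sites that bracket an interval are convergent when each points inward. The motif matches at the nearest CTCF-bound Rad21 regions are shown beside those of the Ube2e3 and Lpin1 index regions, each read on the strand of its match with 10 bases on either side and the core in capitals, to let their orientation and letters be compared.
Tbl1xr1 upstream, left, chr3:21370283-21370315 plus: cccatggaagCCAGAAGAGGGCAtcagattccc
Tbl1xr1 promoter, right, chr3:22008705-22008737 plus: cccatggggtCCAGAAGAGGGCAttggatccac
Pip4k2a, left, chr2:18822445-18822477 minus: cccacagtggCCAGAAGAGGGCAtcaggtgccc
Pip4k2a, right, chr2:19015836-19015868 minus: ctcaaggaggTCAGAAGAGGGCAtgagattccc
Ptpn14, left, chr1:191626637-191626669 plus: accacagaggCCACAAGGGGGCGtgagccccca
Ube2e3, left, chr2:78771715-78771747 plus: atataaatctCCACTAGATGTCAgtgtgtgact
Ube2e3, right, chr2:79095439-79095471 minus: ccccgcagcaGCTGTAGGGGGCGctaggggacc
Lpin1, right, chr12:16349014-16349046 plus: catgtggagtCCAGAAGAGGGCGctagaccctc
Ube2e3, index, chr2:78799705-78799737 plus: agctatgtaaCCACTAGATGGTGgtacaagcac
Lpin1, index, chr12:16238120-16238152 minus: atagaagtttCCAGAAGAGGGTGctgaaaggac

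The matches on both sides pointed toward the index region at Ube2e3 alone. On its left was a region 27672 bp away (Rad21 folds 22.4 and 24.6, CTCF fold 5.39), and on its right one 295199 bp away at the promoter of Itga4, the integrin alpha 4 chain of lymphocyte adhesion (Rad21 folds 43.4 and 55.1, CTCF fold 13.3). At Pip4k2a the flanking sites were almost equally far, at 95387 bp on the left and 95249 bp on the right, and both were on the minus strand, so that the right one pointed toward the index region and the left one away. Their Rad21 folds were 5.58 and 8.20 on the left and 10.0 and 29.1 on the right. The left sites of Tbl1xr1 upstream (463898 bp away, 18.1 and 8.20) and Ptpn14 (27537 bp away, 4.64 and 6.27) pointed inward, and the right sites of the Tbl1xr1 promoter (31788 bp away, 7.06 and 8.91) and Lpin1 (110623 bp away, 14.5 and 18.1) pointed away. The other flanking sites, the right of Tbl1xr1 upstream, which is the left of the Tbl1xr1 promoter, the right of Ptpn14 and the left of Lpin1, had no match with at most 2 mismatches. The CTCF peaks at the left sites of Tbl1xr1 upstream and Ptpn14 had a −log10 q of 0.

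**Figure D4:**
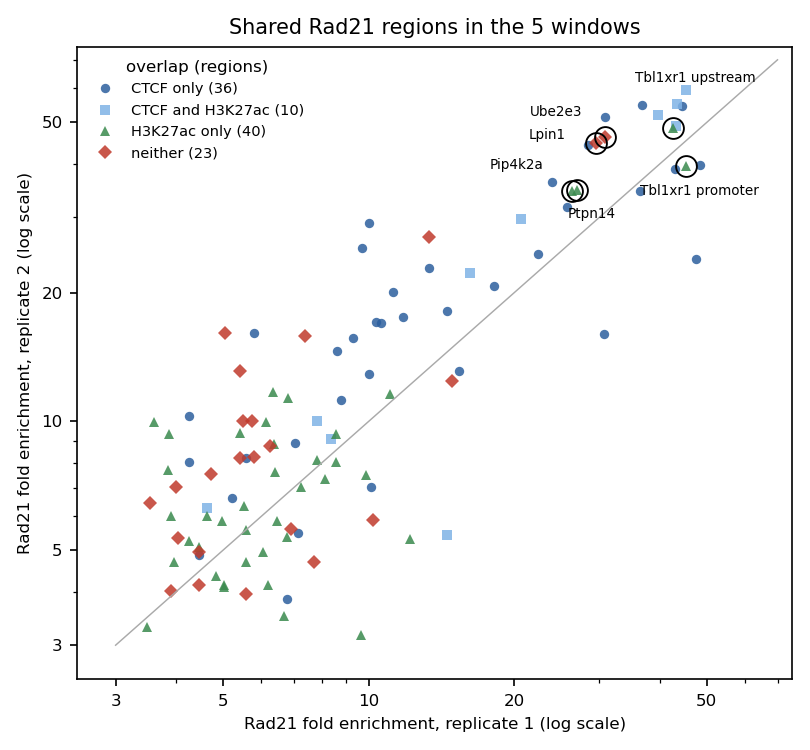
Rad21 fold enrichment in replicates 1 and 2 (log scales) of the 109 shared Rad21 regions in the 5 windows, by overlap with CTCF and H3K27ac, with the line of equal folds. Circles mark the index regions, which lie among the highest CTCF-bound regions, and all other CTCF-free regions are at or below 14.8 in replicate 1 and 26.9 in replicate 2.

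The windows held many more CTCF-free Rad21 regions than the index regions. Of 109 shared Rad21 regions 63 were CTCF-free (57.8%, where the share over the genome is 34.1%) and 46 CTCF-bound. Of the 63, 23 lacked shared H3K27ac as well. The share with it was 63.5%, against 72.0% of the CTCF-free regions of the genome, of which 28.0% lack it. Without the index regions 57 of 103 were CTCF-free (55.3%). In density this was 13.8 CTCF-free regions per Mb against 4.00 over the genome, beside 10.1 against 7.73 for CTCF-bound regions, 14.5 against 13.4 for CTCF peaks and 12.5 against 6.15 for shared H3K27ac regions. The windows were placed around genes that have such regions, so this difference is a description and was not tested. Loci differed among themselves: CTCF-free and CTCF-bound regions numbered 12 and 5 at Tbl1xr1, 25 and 13 at Pip4k2a, 14 and 13 at Ptpn14, 9 and 4 at Ube2e3 and 3 and 11 at Lpin1. Lpin1 was the one window with more bound than free regions, and its 2 other CTCF-free regions were at the promoters of Lpin1 (folds 3.85 and 7.71) and Rock2 (3.90 and 6.03).

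The remaining CTCF-free regions stood below the index regions, which are the highest by choice. Of the 57, 7 lay within 1000 bp of a CTCF peak (12.3%, genome 10.2%). The median folds of the 57 were 5.58 and 6.44, against 6.07 and 7.35 over all CTCF-free regions, and the best rank among them was 415. It belonged to a region in an intron of Ube2e3 (chromosome 2, 78755066 to 78755336, folds 13.3 and 26.9), which had no H3K27ac in either replicate and a CTCF core match with 1 mismatch. The next, rank 1491, lay beside the Ube2e3 index region (78800450 to 78800816, 14.8 and 12.4). After these came an intergenic region 18000 bp from 4930426L09Rik in the Pip4k2a window (rank 1845, 11.1 and 11.6) and a Pip4k2a intron region (rank 3082, 8.57 and 9.37), both in H3K27ac. Beside the Tbl1xr1 upstream index region, and in the same H3K27ac region, lay one of 6.37 and 8.87.

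H3K27ac was found at 36 of the 57 remaining CTCF-free regions (63.2%, where the share over the genome is 72.0%) and at 10 of the 46 CTCF-bound ones (21.7%, genome 18.7%). Of the 21 without a shared region, 8 had an H3K27ac peak in replicate 1 only and 13 in neither list. By window the share among CTCF-free regions was 6 of 10 at Tbl1xr1, 17 of 24 at Pip4k2a, 6 of 13 at Ptpn14, 5 of 8 at Ube2e3 and 2 of 2 at Lpin1. In the other direction 31 of the 57 shared H3K27ac regions held CTCF-free Rad21 (54.4%, genome 34.8%), those of the 4 index regions included. These counts rest on weak H3K27ac calls: when every list was limited to peaks with a −log10 q of 5 or more, 3 of 42 CTCF-free regions (7.14%) and 0 of 22 CTCF-bound regions were in H3K27ac, where the genome shares fell to 7.30% and 1.96%. Of the 66 CTCF peaks 46 held shared Rad21 (69.7%, genome 58.2%), and this ranged from 4 of 7 at Ube2e3 to 13 of 16 at Ptpn14.

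The CTCF core was present at the index regions outside H3K27ac and absent at this stringency from the other 4. A match was allowed 2 mismatches to the 13-base consensus, on either strand, and had to lie inside 50 bp around a summit. At Ube2e3 the best match had 1 mismatch and its centre lay 44 and 18 bp from the summits of replicates 1 and 2. At Lpin1 it had 2 mismatches and lay 21 and 15 bp from them. The best matches at Tbl1xr1 upstream, the Tbl1xr1 promoter and Pip4k2a had 3 mismatches and that at Ptpn14 had 4, and within 150 bp Pip4k2a had one with 2. Of all 63 CTCF-free regions in the windows 13 had a match at the replicate 1 summit (20.6%, genome 21.1%). They were 11 of the 23 outside H3K27ac (47.8%, genome 51.7%) and 2 of the 40 in H3K27ac (5.00%, genome 9.28%), beside 39 of the 46 CTCF-bound regions (84.8%, genome 84.3%). Sequence 1000 bp downstream of CTCF-free summits had a match in 4.66% of cases over the genome. The shares in the windows thus lay near those of the genome. Among the 5 regions of the genome with rank 1 to 50 and no H3K27ac, Ube2e3 and Lpin1 among them, 4 had a match, and among the 12 with H3K27ac 2 had one.

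Base composition differed between the index regions. The printed Tbl1xr1 promoter stretch starts before its index region, misses the summit and has 11 CpG, as does that of Tbl1xr1 upstream. The counts below are of a wider window. Within 301 bases around the replicate 1 summit there were 39 CpG at Pip4k2a, 34 at the Tbl1xr1 promoter, 16 at Tbl1xr1 upstream and 9 at Ptpn14, against 2 at Ube2e3 and 2 at Lpin1. The medians were 8 for CTCF-free regions with H3K27ac and 3 for those without. GC content was 76.1% at the Tbl1xr1 promoter, 71.1% at Pip4k2a, 59.8% at Tbl1xr1 upstream, 56.5% at Ptpn14, 48.2% at Lpin1 and 40.5% at Ube2e3, where the corresponding medians were 54.5% and 46.8%. Far from any TSS, Tbl1xr1 upstream still had a CpG count between the median and the upper quartile of its class, which is 23.

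In the same 301 bases, 9 short words were searched on both strands. At Ptpn14 there were the E-box words CAGCTG (24.8% of all CTCF-free regions have it) and CACCTG (31.0%), the TCF/LEF word CTTTGA (18.7%) and the SP/KLF word GGGCGG (28.1%). Pip4k2a had 4 copies of the SP/KLF word and no other. Tbl1xr1 upstream had the GATA word AGATAA (10.1%), and Ube2e3 the RUNX word TGTGGT (26.2%) and the E-box CAGCTG. No match overlapped a different word or the CTCF core, but 2 of the 4 SP/KLF copies at Pip4k2a share a base. The ETS word CCGGAA (14.3%), the NFY word CCAAT (25.7%) and the CRE word TGACGTCA (1.46%) were in none of the 6, and the Tbl1xr1 promoter and Lpin1 had no word at all. Each match is a description of letters and not a bound site.

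Promoters in the windows without an index region carried far lower CTCF-free Rad21, where the index regions are the highest by choice. Of 21 protein-coding genes with a TSS in a window, 13 had shared Rad21 at the promoter (within 2000 bp of a TSS), which 31.5% of the 22350 genes of the genome have. Each of the 13 had a CTCF-free region there, as 17.0% of all genes do. At Tbl1xr1, Pip4k2a and 4930426L09Rik that region is an index region. The windows were placed around such regions, so these counts are a description and were not tested. Besides the 5 loci genes these were Cenpf (a kinetochore protein), Smyd2 (a lysine methyltransferase), Commd3, Bmi1 (a Polycomb subunit), 4930426L09Rik, Msrb2 (a methionine sulfoxide reductase), Itga4 and Rock2. Outside the Tbl1xr1 and Pip4k2a promoters, CTCF-free folds ranged from 3.85 to 12.2 in replicate 1 and from 4.01 to 9.95 in replicate 2. Ptpn14 had the 12.2, with 5.31 in replicate 2, and Cenpf had 10.2 and 5.90. Smyd2 and Itga4 stood apart through CTCF: a region at the Smyd2 promoter had Rad21 of 39.6 and 51.9 on a CTCF peak of fold 11.6, and one at another of its annotated starts had 48.5 and 39.8 on a peak of fold 9.96. The Itga4 promoter had 43.4 and 55.1 on a CTCF peak of fold 13.3. The promoter of Ube2e3 held a CTCF peak of fold 17.0 with Rad21 of 8.37 and 9.10, lower than its intergenic index region. The Lpin1 promoter held H3K27ac (6.34 and 3.19) but Rad21 of 3.85 and 7.71, so at Ube2e3 and Lpin1 the gene's own promoter was the lower site in both replicates. The 8 genes without shared Rad21 at the promoter included E2f6, which had H3K27ac (2.29 and 2.28).

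The relatives and partners of the 5 genes mostly had active promoters with modest Rad21. Of 24 genes in 5 lists, 20 had shared H3K27ac within 2000 bp of a TSS (41.5% of all genes), 16 shared Rad21, 14 CTCF-free Rad21 and 9 a CTCF peak (26.4%). The 24 include the 5 loci genes, each of which had H3K27ac, shared Rad21 and CTCF-free Rad21 there. These loci were chosen for CTCF-free Rad21, so the counts are not counts of relatives alone. The folds below are of the highest Rad21 peak at the promoter in each replicate, which need not be the same peak, unless called CTCF-free. In the list of the corepressor complex all 6 promoters had H3K27ac. The X-linked paralogue Tbl1x had Rad21 of 21.6 and 14.5 without CTCF, next to Tbl1xr1 in replicate 1 but below the corepressor Ncor1 (16.9 and 15.2) and the deacetylase Hdac3 (7.81 and 15.2) in replicate 2. The complex member Gps2 had a Rad21 peak in replicate 2 only (7.93). Among phosphatidylinositol phosphate kinases, all 7 with H3K27ac, Pip5k1c had 24.6 and 20.3 and a CTCF peak of fold 15.6, and Pip4k2b 5.45 and 9.36 without CTCF. Pip5k1b had 10.2 and 13.9, and Pip4k2c, Pip5k1a and Pikfyve had a Rad21 peak in 1 replicate each (5.85, 11.1 and 8.50).

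Of the 5 FERM domain tyrosine phosphatases, Ptpn14 and Ptpn4 (Rad21 5.25 and 4.10, H3K27ac 14.9 and 18.9) had promoter H3K27ac in both replicates. Ptpn21 had a Rad21 peak in replicate 2 (5.27), and Ptpn13 and Ptpn3 had none. The promoters of the ubiquitin-conjugating enzymes Ube2e1 and Ube2e2 had H3K27ac and CTCF-free Rad21, at folds of 6.78 and 5.42 for Ube2e1 and 5.10 and 18.7 for Ube2e2. Of the lipins, Lpin2 had 5.54 and 8.23, and Lpin3 had a Rad21 peak in replicate 2 (14.2) and no H3K27ac. With 500 bp on either side of a TSS, the counts of the 24 genes were 20, 12, 11 and 5 for H3K27ac, Rad21, CTCF-free Rad21 and CTCF, where 40.5%, 25.4%, 14.8% and 16.9% of all genes have them. The lists were chosen with earlier results of these data known, and each gene's value comes from its own promoter, so the counts describe these genes and carry no test.

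**Figure D5:**
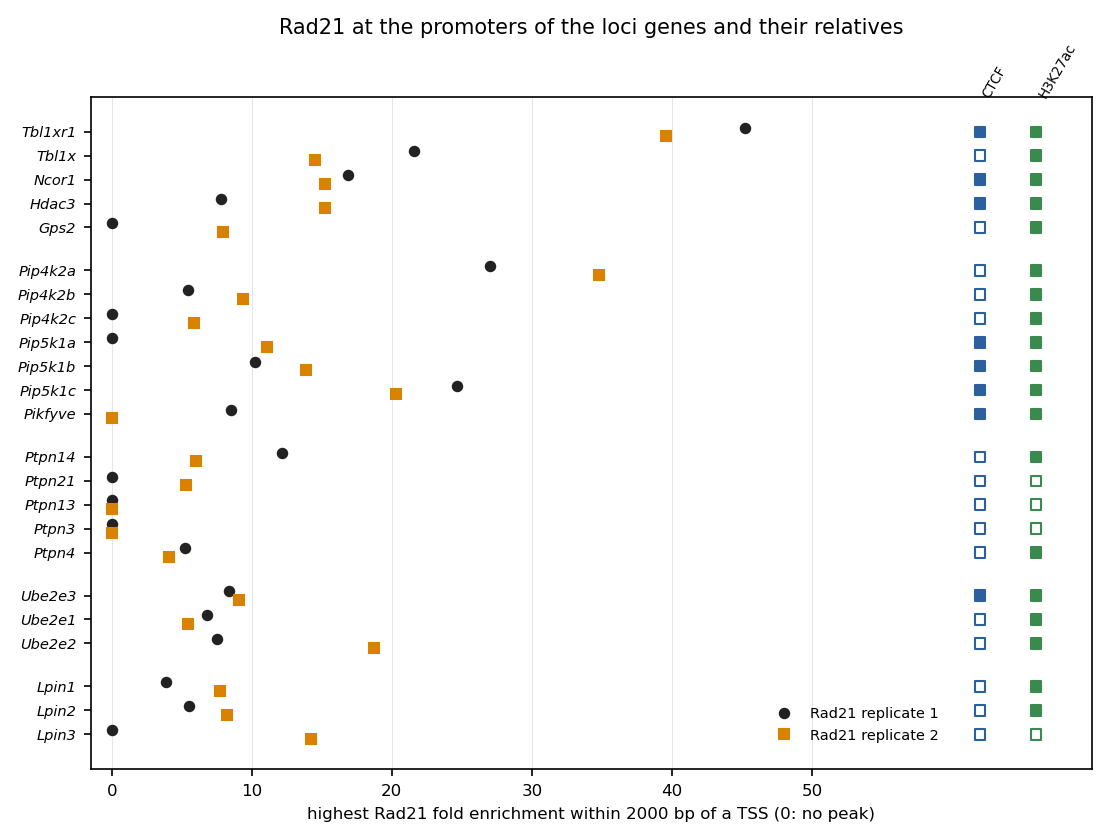
Highest Rad21 fold enrichment within 2000 bp of a TSS (x axis, replicate 1 black circles, replicate 2 orange squares, 0 where no peak was listed) for the genes named in the text from the 5 lists, which are separated by gaps. Filled squares at the right mark a CTCF peak (blue) and shared H3K27ac (green) at the promoter. Tbl1xr1 and Pip4k2a have the highest values of their lists in both replicates.

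The labelled cell type was checked on promoter H3K27ac. All 12 markers of double-positive thymocytes, Cd4, Cd8a, Rag1 and Bcl11b among them, had a shared region. Of markers of other cells, 2 of 6 B cell genes (not Pax5 or Cd79a), 0 of 6 myeloid, 2 of 5 erythroid (no globin gene) and 0 of 7 epithelial and stromal genes had one. At the 5 loci the replicates of Rad21 matched as over the genome: 82.2% of replicate 1 peaks overlapped a replicate 2 peak (genome 83.0%) and 60.4% the reverse (65.1%). For H3K27ac it was 36.1% (42.0%) and 79.1% (74.8%).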

How the data were processed

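ChIP-seq peak lists of 5 libraries (CTCF 1, Rad21 2, H3K27ac 2) were used, with 35345, 38430, 48462, 38700 and 24765 peaks on chromosomes 1 to 19 and X. The fold enrichments are ratios that the authors' caller computed over local background, and the −log10 p and −log10 q values and the summits are as deposited. Build mm9, Bowtie 1.0.0 and MACS2 2.1.0 are named in the submitters' processing notes without a role; thresholds and control: not given in the sources used here. Without read counts in a peak list, depth and the precision it gives are unknown. No peak was called on pooled replicates, per the labels, which give 1 list per library.

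Entries with the same coordinates were counted as 1 peak with several summits. Merged peaks with a peak of each replicate gave 30959 Rad21 and 16230 H3K27ac regions. Overlap needed 1 bp. Gene models came from GENCODE vM1 (NCBIM37, the assembly of mm9), and sequences were read from that genome. Python 3.11.15 with pandas 2.3.3, numpy 2.4.6 and pysam 0.24.0 was used, and the overlap, distance and motif steps were tested on simulated data. No test between groups was made: all libraries are of 1 group.

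The loci, gene lists and alternatives were chosen with earlier results of these data known. The rule names the loci genes, window genes with promoter Rad21, all genes of the 5 lists, the 6 highest CTCF-free regions with the next 4 by rank, and in each window the flanking sites and the 3 highest further CTCF-free regions. The rule was applied to the index regions within the windows; regions elsewhere of rank 11 and 22 are among the next 4. Prox1, E2f6 and the stretches without peaks were named after their values were seen. Values of some single genes that the rule or the marker lists include are not reported here. The alternatives were stricter q, another overlap or summit width, windows of 200 kb, each replicate left out, and other motif settings.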

Additional observations from a re-analysis of the deposited data

How the results depend on the processing

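CTCF-free regions had a higher H3K27ac share than CTCF-bound regions in the windows under each alternative run. The CTCF-free share of the remaining shared Rad21 regions (55.3%) was 65.6% when Rad21 and CTCF peaks needed a −log10 q of 5 or more. It was 64.1% when CTCF peaks needed 1.3, and 63.3% to 72.0% with either Rad21 replicate left out. The genome share (34.1%) rose too, to 41.9%, 40.3% and 42.5% to 52.8% in that order. The H3K27ac share of CTCF-free regions (63.2%) was 45.2% with the stricter Rad21 and CTCF lists, 7.14% with all lists stricter, 56.4% with overlap of 50% of the shorter region, 61.4% with 200 kb flanks and 68.4% with a gap of up to 1000 bp. It ranged from 54.8% to 77.2% with a Rad21 or H3K27ac replicate left out. The genome share for CTCF-free regions (72.0%) fell too, to 49.99% and 7.30% with those stricter lists. With overlap of 50% of the shorter region it was 69.5%, with the gap 73.4% and with a replicate left out 62.1% to 76.8%. For CTCF-bound regions in the windows the share (21.7%) was 22.7% with stricter Rad21 and CTCF lists and 0% with all lists stricter. It was 13.5% with CTCF peaks of 1.3 or more, 22.9% with 200 kb flanks and 23.9% with the gap. With a replicate left out it was 17.4% to 28.3%. The genome share for CTCF-bound regions (18.7%) was 16.0% and 1.96% with those stricter lists. It was 16.8% with CTCF peaks of 1.3 or more, 21.4% with the gap and 16.4% to 22.4% with a replicate left out. The median distance of the index regions to CTCF (35822 bp) was 170252 bp with stricter Rad21 and CTCF lists, 73454 bp with CTCF peaks of 1.3 or more, 35900 bp from summits extended by 100 bp, and 35822 to 35872 bp with a Rad21 replicate left out. The CTCF motif share (20.6%) was 45.8% with stricter Rad21 and CTCF lists, 9.52% with at most 1 mismatch, 38.1% within 150 bp of the summit, and 15.0% to 21.6% with a Rad21 replicate left out. The genome share of 21.1% belongs to the main setting and was not taken under these alternatives. These values therefore cannot be read as particular to the windows. Stricter lists hold fewer peaks by construction, and otherwise the cause was not tested. Of 46 alternative values, 16 moved by no more than a set yardstick, or as counts by at most 1.5 times. The yardstick was the standard deviation of the values from each Rad21 list alone, also for H3K27ac and CTCF settings. It was 6.17 percentage points for the CTCF-free share and 35.4 bp for the CTCF distance. It is not a replicate spread of the shared-region values. No paired analysis was possible because no result comes from a test between groups. A peak list gives no depth, so a region just under the caller's threshold cannot be told from an absent one.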
